A study of Mus musculus with 3 samples.

Results

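Proteasome genes were taken from the mouse annotation as the protein-coding genes with a symbol of Psma, Psmb, Psmc, Psmd, Psme, Psmf or Psmg followed by a digit, which gave 50 of 21853 genes. Their promoters were examined in 3 DNase-seq libraries of natural killer cells, the lymphocytes of innate immunity that lyse virus-infected and tumour cells. The cells were primary cells of adult male B6CASTF1/J mice (first-generation offspring of C57BL/6 and CAST parents) aged 2 months. The 3 libraries are biological replicates of 1 group, with no treatment and no control group, and all carry 1 donor label, and the spread between libraries may therefore be technical. The labels name no sort or gate for the cells.

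The proteasome is the protease that degrades proteins tagged with ubiquitin. Its core particle stacks rings of alpha and beta subunits around the proteolytic sites, and a regulatory particle of ATPase and non-ATPase subunits binds, unfolds and feeds in the substrate. Interferon gamma, which natural killer cells release, induces Psmb8, Psmb9 and Psmb10. Their products replace the catalytic subunits encoded by Psmb5, Psmb6 and Psmb7 and give the immunoproteasome, which favours peptides that MHC class I molecules can present. Lymphoid cells are known to carry immunoproteasomes without infection.

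DNase I cuts accessible DNA. A peak is a stretch with many cuts, and a footprint is a run of a few bases within such a stretch that was cut less, as DNA under a bound protein is. Replicates 1, 2 and 3 held 40484, 84564 and 81854 peaks and 101990, 239483 and 222990 footprints. Replicate 1 stood apart with the smallest lists, and a count that asks for all 3 replicates cannot exceed that of replicate 1. Of 12 natural killer marker genes, 8, 11 and 12 had a promoter peak in replicates 1, 2 and 3, Ncr1 and Prf1 among them in all 3. Marker promoters of B cells were open as well, in 6, 9 and 8 of 10 cases, and those of dendritic cells in 6, 8 and 7 of 10. Those of T cells were open in 3, 8 and 5 of 10 and those of monocytes and macrophages in 2, 5 and 4 of 10. None of 10 neutrophil markers was open in any replicate. Over all protein-coding genes the share with a promoter peak was 51.7%, 58.8% and 58%. The counts alone do not show which cell types were present. As percentiles of peak signal among all peaks of the library, the open natural killer markers had medians of 78.5, 72.0 and 80.6%, those of B cells 33.7, 84.8 and 73.4% and those of dendritic cells 55.2, 78.1 and 88.3%. In bulk chromatin, an open site in few cells and a weakly open site in many cells cannot be told apart. The part of other cell types in the values below was not tested.

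Nearly all proteasome promoters were open. A peak lay within 500 bp of a start site in 47 of 50 proteasome genes (94%) in each replicate, and these were the same 47 genes in all 3 replicates. Among all protein-coding genes a promoter peak was present in 51.7%, 58.8% and 58% in replicates 1, 2 and 3, and in all 3 replicates in 51.3%. The mean difference between proteasome genes and the other genes was 37.9 ± 3.91 percentage points (SD, n = 3), and it had the same direction in 3 of 3 replicates. An exact two-sided sign-flip test of 3 replicates gave p = 0.25, the smallest that it can give.

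The 3 closed promoters belonged to genes with restricted or copied functions. Psma8 encodes an alpha subunit of the testis, Psmb11 encodes the catalytic subunit of the thymoproteasome in cortical thymic epithelium, and Psme2b is a copy of Psme2. None of them had a peak, a footprint or a base at a cut-rate FDR of 0.05 or less within 500 bp of the main start site in any replicate. How reads that match both Psme2b and Psme2 were treated is not given in the sources used here.

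Peak height was compared within each library as the percentile of the strongest promoter peak among all peaks of that library, because the unit of the deposited signal is not stated. The median over the 47 open proteasome promoters was 88.1, 93.4 and 93.1% in replicates 1, 2 and 3, against 84.4, 90.6 and 90.1% over the other open genes. Proteasome promoters thus stood 3.18 ± 0.437 percentile points higher (SD, n = 3), in 3 of 3 replicates (exact sign-flip test, p = 0.25, the smallest possible). Ranked among open promoters alone instead of all peaks, their median was 59.5, 61.0 and 60.7%, against 49.9% for other open genes in each replicate, a mean difference of 10.5 ± 0.771 points. A strongest peak in the top 10% of its library in all 3 replicates was found for 17 of 50 proteasome genes (34%), against 18% of all protein-coding genes. Among genes open in all 3 replicates it was found for 17 of 47 proteasome genes (36.2%), against 35.1% of all such genes, which is near the background.

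**Figure D1:**
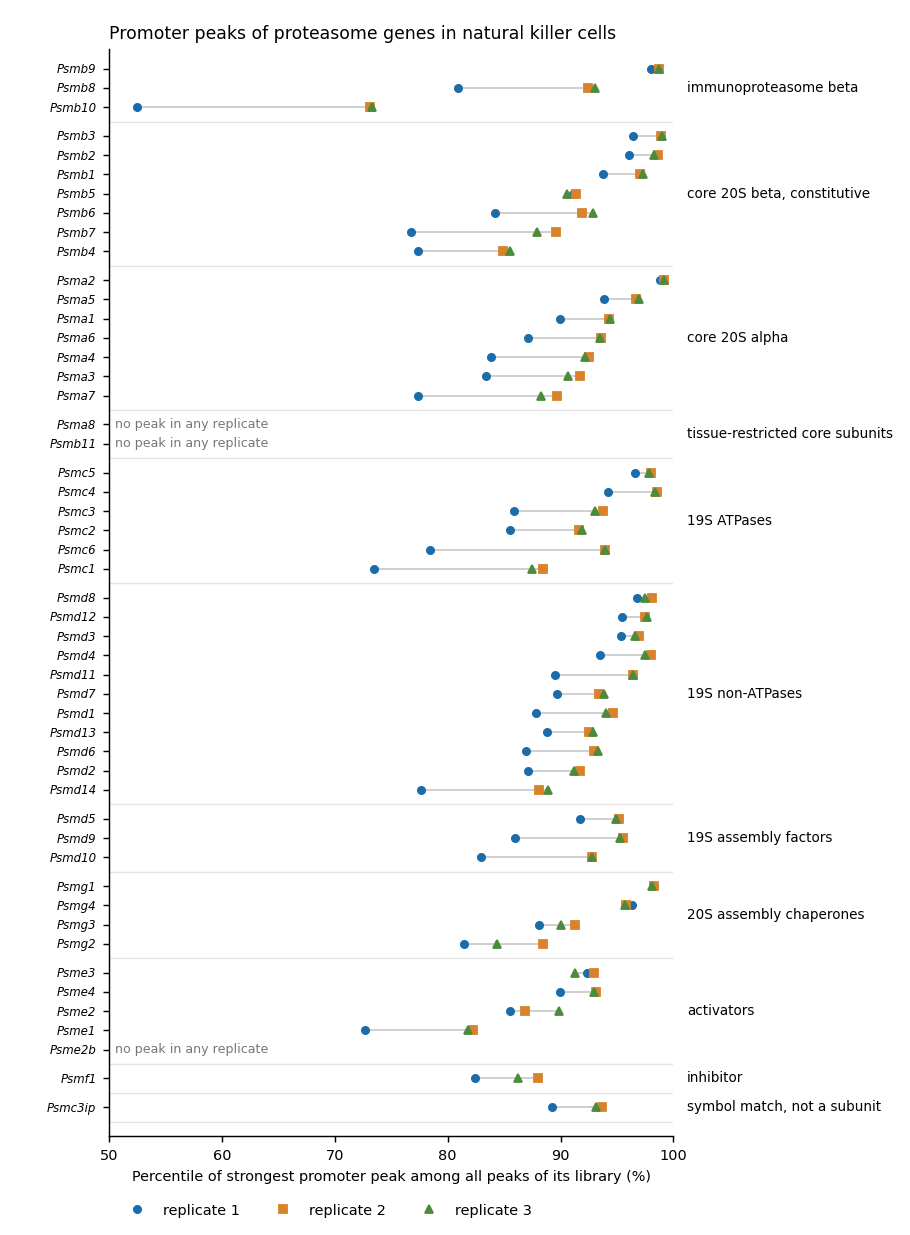
Percentile of the strongest peak within 500 bp of a start site among all peaks of its library, in %, for the 50 proteasome genes grouped by role. Each gene has 1 point per replicate, joined by a grey line, and the horizontal axis starts at 50%. Psma2 and Psmb9 lie at the right edge in all 3 replicates, Psmb10 at its coding start sites lies furthest left, and replicate 1 is the lowest point of 43 of 47 open genes.

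The 7 alpha subunits of the core particle were all open. Psma2 (chromosome 13, 14613240 to 14674236, plus strand, mm10) had the strongest promoter of all proteasome genes, with deposited signals of 10.004, 21.8 and 22.7 in replicates 1, 2 and 3 and a percentile of 99.1 ± 0.188% (mean ± SD, n = 3). Its peak covers the start of Mrpl32, a mitochondrial ribosomal protein gene that begins 75 bp away on the other strand. Psma5 followed at 95.8 ± 1.71%. The lowest alpha promoter was that of Psma7 at 85.1 ± 6.77%, which the first replicate placed at 77.3% and the other replicates at 89.7 and 88.3%. Other open genes also had their lowest median in replicate 1, at 84.4% against 90.6 and 90.1%. An SD of percentiles therefore includes a shift shared by the library. As log2 signal centred on the median of genes open in all 3 replicates, Psma7 stood at -0.53, -0.42 and -0.51.

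All 7 constitutive beta subunits were open too. Psmb3 (98.1 ± 1.47%), Psmb2 (97.7 ± 1.37%) and Psmb1 (96.1 ± 1.96%), which encode beta subunits without a proteolytic site, ranked highest. The Psmb1 peak was centred at -1553 bp from its main start site in replicate 2, near another annotated start. The lowest was Psmb4, another subunit without a proteolytic site, at 82.6 ± 4.54%, with signals of 2.49, 3.69 and 4.26.

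In the regulatory particle, all 6 ATPase genes and all 11 non-ATPase genes were open in every replicate. Psmc5 (97.5 ± 0.776%) and Psmc4 (97.0 ± 2.44%) led the ATPases, which form the ring that unfolds the substrate. Psmc1 was lowest there at 83.1 ± 8.37%. Of the non-ATPases, Psmd8 (97.4 ± 0.622%), Psmd12 (96.9 ± 1.21%), Psmd3 (96.3 ± 0.854%) and the ubiquitin receptor gene Psmd4 (96.3 ± 2.46%) were highest, and they differed among themselves by less than the SD of Psmd4. Psmd14, which encodes the deubiquitinase that removes ubiquitin from the bound substrate, was lowest at 84.9 ± 6.31%.

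Genes for proteins that build or regulate the particle covered the same range. Psmg1, an assembly chaperone of the core particle, reached 98.2 ± 0.122%, and its partner Psmg2 stood at 84.8 ± 3.52%. The regulatory-particle chaperones Psmd5, Psmd9 and Psmd10 stood at 93.9 ± 1.94, 92.3 ± 5.43 and 89.5 ± 5.69%. Among activators, Psme3 and Psme4, which encode the nuclear activators PA28 gamma and PA200, stood at 92.2 ± 0.811 and 92.0 ± 1.78%. Psme1 and Psme2 encode the interferon-induced activator PA28 alpha and beta and stood lower, at 78.9 ± 5.42 and 87.4 ± 2.21%. Psme1 was number 46 of 47 open proteasome promoters in every replicate. The inhibitor gene Psmf1 stood at 85.5 ± 2.85%, through a peak at the RefSeq start, 2876 bp downstream of the main start site, which itself held no base at an FDR of 0.05 or less. Psmc3ip, which matches the symbol but encodes a meiotic recombination factor and no subunit, was open at 92.0 ± 2.39%.

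The immunoproteasome genes did not form a block. Psmb9 had deposited signals of 8.89, 19.2 and 20.7 in replicates 1, 2 and 3, which made it number 3 of 47 open proteasome promoters in each. Psmb8 had signals of 2.94, 7.54 and 8.67 and was number 39, 31 and 25. Psmb10 had signals of 1.13, 1.90 and 2.07 at its coding start sites and was the last of 47 there in every replicate, but number 47, 45 and 42 of 47 when start sites of all transcripts were used for every gene. On the percentile scale they stood at 98.5 ± 0.424% (Psmb9), 88.8 ± 6.86% (Psmb8) and 66.3 ± 11.97% (Psmb10), in the same order in all 3 replicates.

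Set against the other 44 open proteasome genes, the immunoproteasome median was 80.9, 92.5 and 93.0%, against 88.4, 93.5 and 93.2% in replicates 1, 2 and 3. This median is the value of Psmb8. The difference was -2.92 ± 4.03 points (SD, n = 3), lower in 3 of 3 replicates but smaller than its spread, most of which came from replicate 1 at -7.55 points (exact sign-flip test, p = 0.25, the smallest possible). Without replicate 1 the difference was -0.604 points.

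Each inducible subunit was then compared with the constitutive subunit whose place it takes. Psmb8 and Psmb5 encode the chymotrypsin-like subunits. Psmb8 stood at 80.9, 92.5 and 93.0% and Psmb5 at 91.1, 91.4 and 90.5%, so the difference was -10.2, 1.11 and 2.51 points and its direction changed between replicates. Psmb6 encodes the subunit of the caspase-like site, and the product of Psmb9 takes its place. Psmb9 stood at 98.0, 98.7 and 98.8% and Psmb6 at 84.2, 91.9 and 92.9%, a difference of 8.83 ± 4.32 points with Psmb9 higher in 3 of 3 replicates. Its signal was 2.55, 2.74 and 2.43 times that of Psmb6 within the same library. Psmb10 and Psmb7 encode subunits of the trypsin-like site. Psmb10 stood at 52.5, 73.2 and 73.3% and Psmb7 at 76.8, 89.6 and 87.9%, a difference of -18.5 ± 5.12 points with Psmb10 lower in 3 of 3 replicates. With start sites of all transcripts Psmb10 stood at 72.1, 86.0 and 87.6% against unchanged values of Psmb7, and the difference was -2.87 ± 2.25 points.

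Averaged over the 3 pairs, the inducible genes stood at 84.5 ± 6.42% and their counterparts at 88.5 ± 3.86% (SD, n = 3), a difference of -3.95 ± 2.60 points with the same direction in 3 of 3 replicates (exact sign-flip test, p = 0.25, the smallest possible). The mean hides pairs of opposite direction. It also depended on the peaks used for ranking and on which start sites were counted. Ranked among open promoters alone, the mean difference was 4.12 points, with -1.03, 6.10 and 7.29 in replicates 1, 2 and 3. With start sites of all transcripts, it was 1.25 points, with -0.364, 1.43 and 2.68. Replicate 1 kept its negative direction in both settings. With start sites of all transcripts, a second peak counts for Psmb10.

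**Figure D2:**
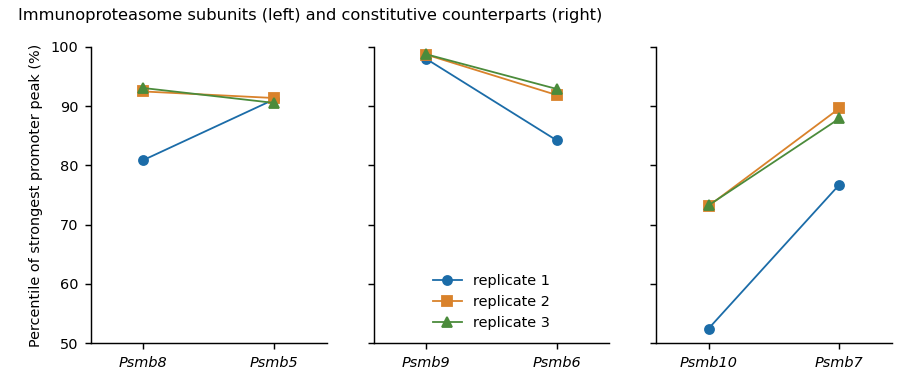
Percentile of the strongest promoter peak in % (vertical axis, from 50%) for each immunoproteasome gene on the left and its constitutive counterpart on the right, with 1 line per replicate. Psmb9 lies above Psmb6 and Psmb10 below Psmb7 on all 3 lines, whereas Psmb8 lies below Psmb5 in replicate 1 and above it in replicates 2 and 3.

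That second peak of Psmb10 lies inside the gene. Psmb10 spans chromosome 8 from 105935735 to 105938444 on the minus strand (mm10). Its promoter peak in replicate 2 ran from 224 to 423 bp downstream of the start site and the inner peak from 1204 to 1463 bp downstream. The inner peak had signals of 2.02, 4.01 and 5.02, against 1.13, 1.90 and 2.07 for the promoter peak, and was the higher in 3 of 3 replicates. With start sites of non-coding transcripts included, Psmb10 stood at 81.9% instead of 66.3%.

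Psmb8 and Psmb9 lie beside each other in the MHC region of chromosome 17, Psmb9 from 34181987 to 34187764 on the minus strand and Psmb8 from 34197721 to 34201454 on the plus strand (mm10), with Tap1 between them. Tap1 encodes a subunit of the transporter that carries proteasome products into the endoplasmic reticulum. A Tap1 start site lies 38 bp from one of Psmb9 on the opposite strand, and both genes had the same strongest peak in all 3 replicates. The signal of that peak belongs to both genes and cannot be divided between them. The peak ran from 244 to 423 bp downstream of the main start site of Psmb9 in replicates 2 and 3, and the RefSeq start lies 434 bp downstream, so the peak is just upstream of that start. Psmb8 had a second peak 451 to 650 bp downstream of its main start site in replicates 2 and 3, with signals of 4.69 and 4.92, and in replicate 1 one of 2.03, each below that of its promoter peak.

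**Figure D3:**
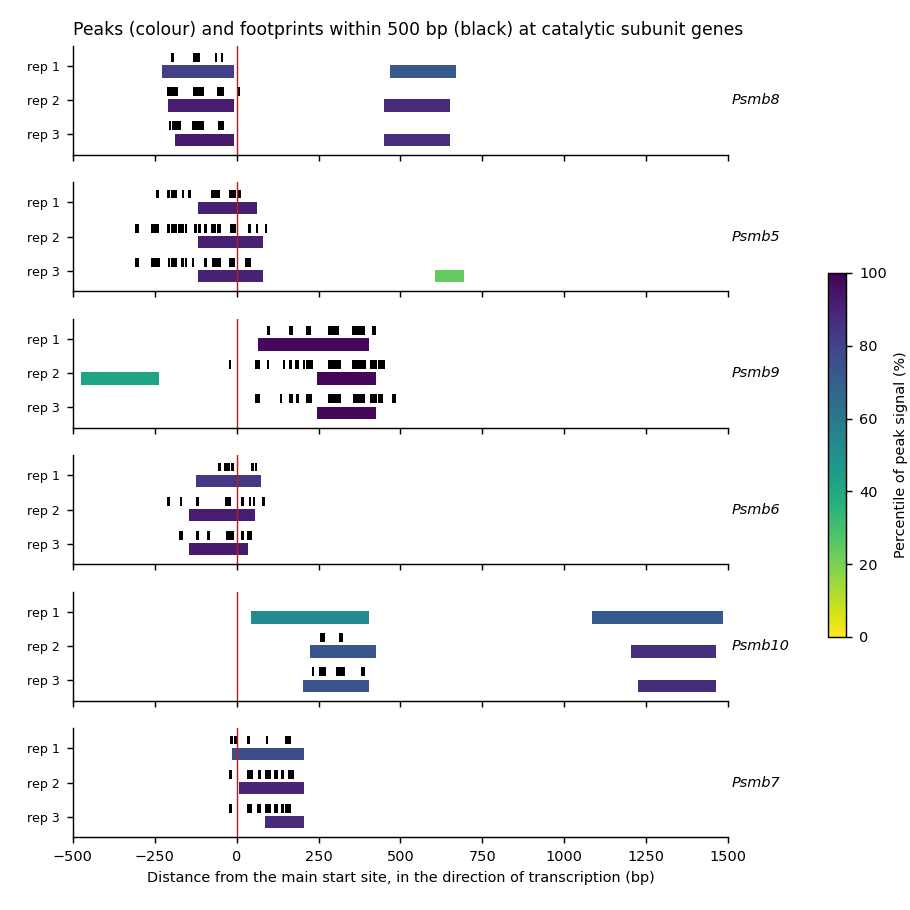
Peaks (coloured bars, coloured by percentile of signal) and footprints within 500 bp of start sites (black bars) at the 6 catalytic subunit genes in replicates 1 to 3, by distance in bp from the main start site (red line) in the direction of transcription. Psmb8, Psmb5 and Psmb6 have their peak upstream of or across the main start, those of Psmb9 and Psmb10 lie downstream of it, as that of Psmb7 does in replicates 2 and 3, and Psmb10 has an inner peak past 1000 bp.

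Footprints fell on particular bases of these promoters. The sequences below are the parts of the replicate 2 peaks outside annotated exons, except for Psmb9, whose peak lies in an annotated first exon and of which 30 bases of its longest protected run are given. They are reference sequence (GRCm38/mm10, from C57BL/6J), 5′ to 3′ on the strand of the gene, and capitals mark bases inside a footprint in all 3 replicates.
Psmb8, chr17:34197581-34197720, plus strand: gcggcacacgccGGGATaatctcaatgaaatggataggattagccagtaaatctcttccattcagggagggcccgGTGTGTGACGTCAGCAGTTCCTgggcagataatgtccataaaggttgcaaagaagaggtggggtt
Psmb5, chr14:54618023-54618140, minus strand: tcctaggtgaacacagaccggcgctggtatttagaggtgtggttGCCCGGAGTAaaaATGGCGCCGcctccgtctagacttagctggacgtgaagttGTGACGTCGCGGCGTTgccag
Psmb9, chr17:34187373-34187402, minus strand: CCCCTTGCGCGATGATGGGGCGGGGCCTCA
Psmb6, chr11:70525241-70525366, plus strand: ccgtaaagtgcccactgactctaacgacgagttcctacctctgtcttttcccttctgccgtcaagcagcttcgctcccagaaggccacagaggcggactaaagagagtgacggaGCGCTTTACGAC
The protected run of 22 bases in Psmb8, at -134 to -113 bp from its main start site, holds the cAMP response element TGACGTCA, a palindrome bound by CREB and ATF factors. In Psmb5, 16 bases were protected at -21 to -6 bp, and they hold TGACGTCGC, a match to the pattern TGACNNNGC of antioxidant elements, which CNC-bZIP factors such as Nrf1 (Nfe2l1) and Nrf2 (Nfe2l2) bind with small Maf proteins. Nfe2l1 is known to raise proteasome genes when proteasomes are inhibited. The same pattern in Psmb6, TGACGGAGC, begins at -38 bp and had 2 of its 9 bases in the run shared by all 3 replicates. The single footprints there ran from -39 to -20 bp in replicate 1, -36 to -18 bp in replicate 2 and -31 to -10 bp in replicate 3. That of replicate 1 covered the whole match. The Psmb9 run of 38 bases, of which 30 are shown, holds the GC box GGGCGG that SP and KLF factors bind.

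Protected bases differed among the catalytic genes. Psmb9 had 110 bases within 500 bp of its start sites in a footprint in all 3 replicates, in 5 runs of at least 5 bases, and Psmb8 had 34 in 3 runs. Psmb10 had none, since replicate 1 called no footprint there and replicates 2 and 3 called 2 and 4. Among the counterparts, Psmb5 had 77 such bases in 7 runs, Psmb7 29 in 4 runs and Psmb6 12 in 1 run. Psmb9 thus had the most and Psmb10 the fewest, in the same order as their signal within the trio. The counterparts did not keep that order, since Psmb6 (89.6%) had fewer such bases than Psmb7 (84.8%). Psmb9 and Psmb8 have 3 coding start sites each and Psmb10 has 1, so the area searched differed.

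Over the whole family, 46 of 50 proteasome genes (92%) had a footprint within 500 bp of a start site in all 3 replicates, against 48.7% of all protein-coding genes. In replicates 1, 2 and 3 the counts were 46, 47 and 47, against 49.1%, 56.9% and 56.1% of all protein-coding genes. Psmb10, in replicate 1, was the one open proteasome gene without a footprint. The footprint shares in all 3 replicates lay near those with a promoter peak, 94% of proteasome genes and 51.3% of all protein-coding genes. The share with a footprint among open genes alone was not computed. Open proteasome promoters held a mean of 6.15, 8.47 and 8.04 footprints in replicates 1, 2 and 3, against 5.64, 7.60 and 7.23 in other open promoters, a difference of 0.730 ± 0.195 (SD, n = 3; exact sign-flip test, p = 0.25, the smallest possible). Psmb1 and Psme3 held most, 12.7 on average each. This difference turned to -0.122 when footprints had to lie wholly inside a promoter peak, and to -0.0628 with the stronger 50% of peaks. All footprints in the windows, divided by the kb of promoter peak, had medians of 20.8, 30 and 30 in proteasome genes. In other open genes the medians were 14.5, 20 and 19.6. This ratio also counts footprints outside the peaks, so it is not a density within peaks. Proteasome genes had 2.19 start sites each on average and other open genes 2.94, and more start sites give a wider area to count in.

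Immunoproteasome promoters held fewer footprints than the other proteasome promoters, a mean of 3.33, 6 and 6 against 6.34, 8.64 and 8.18, lower in 3 of 3 replicates by -2.61 ± 0.414 (SD, n = 3; exact sign-flip test, p = 0.25, the smallest possible). Psmb8 had 4 in each replicate, Psmb9 had 6, 12 and 10, and Psmb10 had 0, 2 and 4. With start sites of all transcripts, where the inner peak of Psmb10 counts, the difference was -1.70, 0.227 and 1.06 in replicates 1, 2 and 3, a mean of -0.136, so its direction turned in 2 of 3 replicates.

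Sequence motifs were searched on both strands in the 300 bases from 250 before to 50 after the RefSeq start site (GRCm38), which was given for 42 of the 50 proteasome genes. The ETS motif CCGGAAG, bound by a family of factors that includes Ets1 and GABP, was in 15 of 42 proteasome promoters (35.7%), against 12.3% of other promoters and 20.5% of other promoters that were open in all 3 replicates. Within 100 bp of the middle of the strongest peak it was found in all 3 replicates in 16 of 47 open proteasome genes (34.0%), against 15.3% of other open genes. At least 50% of the motif lay in a promoter footprint in all 3 replicates in 8 of 47 (17.0%), against 9.91%. The genes with the motif in the peak were Psma6, Psmb7, Psmc2, Psmc3, Psmc6, Psmd2, Psmd4, Psmd6, Psmd7, Psmd11, Psmd12, Psme3, Psme4, Psmg1, Psmg3 and Psmc3ip. None of the immunoproteasome genes was among them.

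The interferon-type pattern GAAANNGAA, which interferon-regulatory factors bind, was near the middle of the strongest peak in 7 of 47 open proteasome genes (14.9%), against 2.74% of other open genes. These were Psmb10, Psme1, Psmb3, Psmb4, Psmd4, Psmf1 and Psmg4. In the RefSeq windows it was in 6 of 42 proteasome promoters (14.3%), against 8.33% of other promoters and 6.82% of other open promoters, and the 6 were Psmb3, Psmb4, Psmd4, Psmd9, Psme1 and Psmg4, without Psmb10. Psmb10 and Psme1 are known as interferon-induced genes. So are Psmb8, Psmb9 and Psme2, none of which was among these genes by either search. The pattern lay in a promoter footprint in 1, 6 and 6 of 47 open proteasome genes in replicates 1, 2 and 3, against 1.37, 2.43 and 2.30% of other open genes. In all 3 replicates it lay in a footprint in Psmb4 alone. Neither Psmb8 nor Psmb9 had it near the peak middle in all 3 replicates. The STAT pattern TTCNNNGAA was near the peak middle in Psmb8, Psmd2 and Psmd3 (6.38%, against 2.98% of other open genes) and in no footprint in all 3 replicates. In the RefSeq windows it was in 3 of 42 proteasome promoters (7.14%), against 7.77% of other promoters and 6.75% of other open promoters.

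Several other motifs were searched in the same way. The GC box GGGCGG was in the peak of 22 of 47 open proteasome genes (46.8%), against 55.8%, and in a footprint in 22 (46.8%), against 47.6%. The NRF1 motif CGCANGCG is bound by nuclear respiratory factor 1, which is distinct from the CNC-bZIP factor of similar name. It was in the peak of 6 (12.8%), against 15.1%, and in a footprint in 6 (12.8%), against 17.7%. The pattern TGACNNNGC was in the peak of 7 (14.9%), against 9.32%, and in a footprint of Psmb5 and Psmd9 (4.26%), against 4.45%. In the RefSeq windows it was in 6 of 42 proteasome promoters (14.3%), against 13.3% of other promoters and 15.0% of other open promoters. The cAMP response element TGACGTCA was in a footprint of Psmb2 and Psmb8 (4.26%), against 3.86%. The CCAAT box CCAAT was in the peak of 10 (21.3%), against 28.3%. The remaining motifs, CACGTG of E-box factors, AAGATGGC of YY1, TTCNNGAA of heat shock factors, TCTCGCGA of BANP, GGGANNTTC of NF-kB and TGTGGTT of RUNX factors, were each in the peak of 1 to 3 of the 47 proteasome genes, against 1.73 to 7.20% of other open genes.

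**Figure D4:**
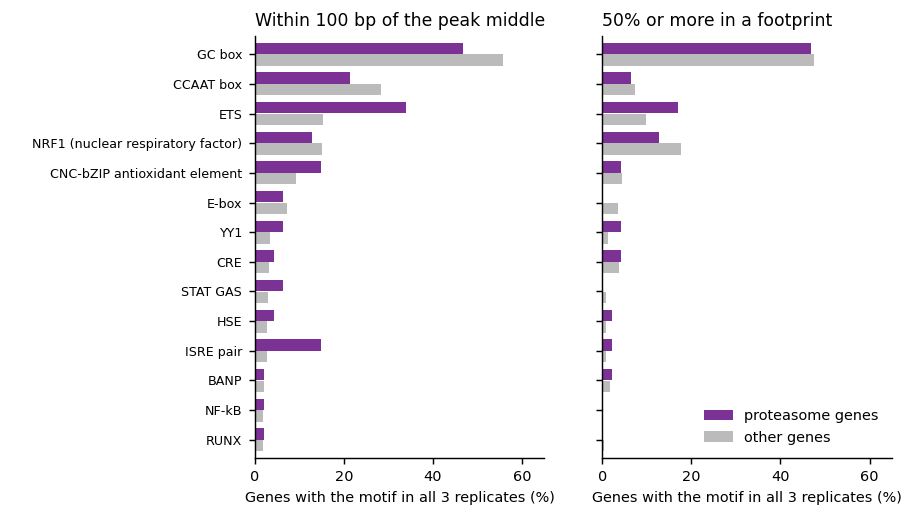
Percent of the 47 open proteasome genes (purple) and of the other genes open in all 3 replicates (grey) that have each motif in all 3 replicates, within 100 bp of the middle of the strongest peak (left) and with at least 50% of its bases in a promoter footprint (right). In the left panel ETS reaches 34.0% against 15.3% and the interferon-type pattern, labelled ISRE pair, 14.9% against 2.74%.

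Examples from outside the catalytic genes show how these motifs lay relative to protected bases. Psmc4 and Psmg1, both with strong peaks and no protein-coding gene starting within 1000 bp, are given by the same rules as above.
Psmc4, chr7:28050102-28050360, minus strand: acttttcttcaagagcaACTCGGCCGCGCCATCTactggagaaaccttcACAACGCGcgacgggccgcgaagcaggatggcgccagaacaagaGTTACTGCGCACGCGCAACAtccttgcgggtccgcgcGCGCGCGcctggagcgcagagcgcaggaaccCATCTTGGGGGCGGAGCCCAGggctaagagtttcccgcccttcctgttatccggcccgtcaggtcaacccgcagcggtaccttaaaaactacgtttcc
Psmg1, chr16:95990961-95991060, minus strand: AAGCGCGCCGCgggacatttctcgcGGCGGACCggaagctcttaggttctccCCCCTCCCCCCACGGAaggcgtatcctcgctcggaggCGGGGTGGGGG
In Psmc4 the NRF1 match CGCACGCG, at -159 bp from the main start site, was protected over all 8 bases, and so was 1 of 2 GC boxes. In Psmg1 the ETS match CCGGAAG, at -69 bp, had 2 of 7 bases in a protected run.

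Base composition separated some members. The ratio of observed to expected CpG in the RefSeq window had a median of 0.772 in open proteasome genes, against 0.790 in other open genes. The lowest ratios belonged to the closed Psme2b (0.0904) and Psmb11 (0.165), followed by Psmb10 (0.192), the weakest open promoter at coding start sites. Psmd4 (0.508) and Psmb8 (0.523) came next. The RefSeq start of Psmb8 lies 405 bp downstream of the main start site used for its peak, so its ratio refers to that second start.

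The neighbourhood of the start sites was also examined. A protein-coding start on the opposite strand lay within 1000 bp in 11 of 50 proteasome genes (22%), against 11.4% of all protein-coding genes, and among open genes in 11 of 47 (23.4%) against 20.1%, which is near the background. The pairs with the same strongest peak in all 3 replicates were Psma2 and Mrpl32, Psma4 and AY074887, Psma7 and Ss18l1, Psmb1 and Tbp, Psmb9 and Tap1, Psmc2 and Dnajc2, Psmc5 and Ftsj3, Psmd10 and Atg4a, Psmd13 and Sirt3, Psme2 and Rnf31, and Psmg2 and Cep76. Psmg3 shared its peak with Gm26938 on the same strand. Without these 12 genes the median percentile of open proteasome promoters exceeded that of other open genes by 3.76 points.

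Genes that work with the proteasome were taken as 4 further lists and read against the 51.3% of all protein-coding genes with a promoter peak in all 3 replicates. All 8 further proteasome parts and assembly genes found in the annotation were open in all 3 replicates, from Adrm1, a ubiquitin receptor, at 98.3 ± 0.455%, Uchl5 at 97.1 ± 2.02% and Txnl1 at 95.1 ± 2.44% to Usp14 at 88.8 ± 5.82%, Sem1 at 86.6 ± 6.69% and Ecpas at 66.5 ± 10.3%. Their medians were 88.0, 93.5 and 93.8% in replicates 1, 2 and 3, against 84.4, 90.6 and 90.1% over open genes other than proteasome genes. All 9 genes of proteasome gene control were open as well, with medians of 84.3, 90.9 and 90.8%, close to those of other open genes. Vcp (99.3 ± 0.0405%), Nfe2l2 (98.3 ± 0.680%) and Nfe2l1 (98.1 ± 0.671%) were highest, and Ddi2 (86.1 ± 8.21%), Ngly1 (86.0 ± 1.72%) and Keap1 (72.2 ± 6.93%) lowest. The 10 ubiquitin and delivery genes were open with medians of 93.9, 96.0 and 95.7%, led by Rad23b (99.9 ± 0.0482%), Ubb (98.2 ± 1.34%) and Zfand5 (97.6 ± 1.33%), with Uba1 (86.7 ± 5.56%), Ubqln1 (85.6 ± 3.37%) and Ubqln2 (66.3 ± 9.53%) at the low end. The 9 peptide loading genes were open with medians of 93.8, 97.4 and 97.2% in replicates 1, 2 and 3. H2-D1 (99.9 ± 0.184%), Calr (99.5 ± 0.330%) and Tap1 (98.5 ± 0.424%, the peak shared with Psmb9) were highest, and Pdia3 (93.5 ± 1.09%), Tap2 (89.6 ± 4.20%) and Erap1 (86.6 ± 3.10%) lowest.

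To compare replicates on 1 scale, signal was taken as log2 and centred on the median of all genes open in all 3 replicates. The range over the 3 replicates had a median of 0.24 over the 47 proteasome genes and of 0.36 over all 11209 open genes. The widest range among proteasome genes was 0.86, at Psme2, with centred log2 signals of 0.07, -0.79 and -0.30 in replicates 1, 2 and 3. Between replicates 2 and 3 the median difference was -0.02, with 20 of 47 genes higher in replicate 2. As a description across genes that share a library, Spearman's rho between replicates over the 47 genes was 0.872 for replicates 1 and 2, 0.864 for 1 and 3 and 0.985 for 2 and 3. Over all 11209 open genes it was 0.955, 0.959 and 0.988 for the same pairs, higher than over the proteasome genes in each.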

How the data were processed

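Peaks, footprints and cut-rate FDR lists were deposited per library, with mm10 as the assembly per the labels. No source used here names the aligner or the callers, and read depth is unknown, so no counting intervals are given. The deposited peak signal has no stated unit. It was compared within a library, and between libraries only as log2 signal centred per library. The deposited FDR q-value reaches 0.05, and the deposited footprint score, also a p-value or q-value column, is constant at 0.01 and was not used as a measurement. The larger of the 2 deposited peak lists per library was used, and the smaller one as an alternative.

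Promoters were 500 bp on each side of the 54361 start sites of protein-coding transcripts (GENCODE vM21), chromosome M left out, and were open where a peak overlapped by at least 1 bp. The main start site was the first one of a principal transcript. Of several peaks the one with the highest signal was taken, and ties in rank were counted by 50%. Differences between gene groups were tested over the 3 replicates by an exact two-sided sign-flip test, since genes of 1 library are not replicates. Overlaps computed in Python 3.11.15 with numpy 2.4.6 and pandas 2.3.3 were tested on simulated data and checked with bedtools 2.31.1, with 0 differing genes in the 3 libraries. Motifs and promoter windows came from RefSeq sequence (GRCm38). The files' intervals fit within all 21 chromosomes of that build. Members and lists were chosen with earlier results of these data known. All members could be named, and of other lists the 3 highest and 3 lowest genes. Shfm1 and Paaf1 of the lists did not match the annotation. Alternatives were other promoter widths, start sites, peak and footprint lists, rank scales and comparison genes, and leaving out each replicate.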

Additional observations from a re-analysis of the deposited data

How the results depend on the processing

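The number of proteasome genes open in every replicate used lay between 45 and 47 over all 11 alternatives. Proteasome promoters ranked above other open genes in every alternative. The mean difference of 3.18 percentile points moved to 1.90 with the stronger 50% of peaks and to 10.5 when ranked among open promoters. It moved to 3.76 without the 12 proteasome genes that share their strongest peak, with the other open genes unchanged. When 1 replicate was left out it was 2.93 to 3.34. The immunoproteasome median stayed below that of the other proteasome genes in all 14 alternatives. This median is the value of Psmb8, so the alternatives follow 1 gene and do not place all 3 genes lower. Psmb9, at 98.5%, stood above the median of the other proteasome genes. The difference of -2.92 points moved to -7.71 when ranked among open promoters and ran from -4.30 to -0.604 without 1 replicate. Against their counterparts, the difference of -3.95 moved to -7.88 with the stronger 50% of peaks (-4.88 to -2.47 without 1 replicate). Its mean reversed to 4.12 among open promoters and to 1.25 with start sites of all transcripts, while replicate 1 stayed negative in both. The footprint difference of 0.730 per promoter moved to 0.995 with 250 bp, 0.510 with 1000 bp, 0.307 with the smaller peak list, 1.13 with the first start site only and 0.480 with footprints of 8 bp or more. It reversed to -0.0628 with the stronger 50% of peaks and to -0.122 with footprints wholly inside a peak (0.660 to 0.841 without 1 replicate). The cause of these shifts was not tested. Start sites of all transcripts and the setting without proteasome genes that share a peak were chosen after seeing the data. No paired analysis was possible because there is 1 group, and each comparison of gene groups was made within a library. With 3 libraries of unknown depth, the exact test cannot go below p = 0.25.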
